A study of Mus musculus with 23 samples.

Results

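The genes described here are 41 immediate early and early response genes of neuronal activity, a list of genes named by symbol. All 41 were found among the 21785 genes of the deposited table of mouse hippocampal messenger RNA, and 40 were expressed highly enough on average to be tested. Atf3, with a mean of 0.462 RPKM over 23 libraries, fell below the minimum of 0.5. RPKM is a read count scaled to gene length and to the mapped reads of the library. The libraries fall into 4 groups by label. Those labelled Dp16;D-KO/K-KO (5 libraries) come from mice that carry Dp(16)1/Yey, a duplication on chromosome 16 of the stretch whose genes lie on chromosome 21 in humans, with the dosage of Dyrk1a and of Kcnj6 corrected. The 6 libraries labelled Dp16/D-KO carry the same duplication with the dosage of Dyrk1a corrected. The 7 Dp16 libraries carry the duplication alone, and the 5 WT libraries carry none of these alleles. Batch 1 (10 libraries) is labelled total RNA, from C57BL/6 mice of 2 to 3 months, though the protocols of both batches describe oligo(dT) selection. Batch 2 (13 libraries) is labelled polyA RNA, from mice over 90% C57/B6 with no age given, and each group has 2 or 3 libraries in batch 1 and 3 or 4 in batch 2. The labels do not say that each library is a separate animal, so p-values measure the spread between libraries. They do not give the state of the mice before dissection, to which these genes respond.

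Immediate early genes are switched on within minutes of synaptic activity, without new protein synthesis, when calcium entry and kinase signalling reach transcription factors such as CREB, SRF and MEF2 that are already bound at their promoters. Many encode transcription factors themselves, among them the AP-1 subunits of the Fos and Jun families, the EGR zinc finger proteins, the NR4A nuclear receptors and Npas4, and these act on slower effectors at the synapse. In the hippocampus their mRNA is short-lived, and Fos, Arc and Egr1 are widely used to mark recently active neurons. Dyrk1a is a protein kinase and Kcnj6 a subunit of an inwardly rectifying potassium channel that dampens neuronal firing.

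Some facts of the libraries touch every result. Dyrk1a ran from 22.3 to 26.0 RPKM in Dp16;D-KO/K-KO, 21.3 to 26.5 in Dp16/D-KO and 22.7 to 26.6 in Dp16, against 15.4 to 18.04 in WT. Kcnj6 ran from 23.1 to 27.1 RPKM in Dp16;D-KO/K-KO, 23.4 to 27.6 in Dp16/D-KO and 23.2 to 31.9 in Dp16, against 15.3 to 20.4 in WT. The libraries whose labels name the correction of either gene therefore stood within or close to the range of Dp16, not of WT, and are called by their labels throughout. The labels do not say which part of each gene was altered, so a transcript that remains is not told apart from an unaltered one. Ddx3y, a gene on the Y chromosome, was 12.65 RPKM in WT F1 and at most 0.03 in every other library with the letter F, and it was 0.01 in WT M3 and at least 9.59 in every other library with the letter M. By a mean over 200 genes that differ between the batches, scaled to 0 for batch 1 and 1 for batch 2, WT M3 scored 0.05 although it is labelled as batch 2, whose other libraries scored at least 0.947. The comparisons with WT and between the letters are therefore also given without these 2 libraries. Markers of dentate granule, CA1 and CA2 or CA3 neurons, 25 genes in all, were all above 0 in every group.

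The promoters of these genes hold more of the CREB site than promoters at large. Of the 41 genes, 32 matched a RefSeq table of promoters (build GRCm38.p6, 250 bases before to 50 after each start site), with 47 promoters between them. The short cAMP response element, TGACG on either strand, stood in 28 of the 47 (59.6%), against 20.8% of all 32851 promoters of the same length. The full element TGACGTCA, which contains the short site on both strands, stood in 5 (10.6%) against 1.79%, in the genes Arl4d, Btg2, Dusp1, Plk2 and Scg2. The CArG box bound by SRF stood in 10.6% against 1.63%, and these were promoters of 2 genes, Egr2 and Dusp5. The EGR site GCGNGGGCG stood in 9 promoters (19.1% against 5.55%) and the MEF2 site in 3 (6.38% against 0.557%). The AP-1 site TGANTCA stood in 2 (4.26%), against 7.81% of all, and the TATA box TATAAA, on the sense strand, in 5 (10.6% against 8.32%). Both sets differ in base composition, with a median GC content of 62% in the members' promoters and 52.7% in all, which bears on these shares, and promoters of 1 gene overlap. A match in these letters is not evidence of binding. The 250 bases before the start site are shown for 4 rapid transcription factor genes that varied together between libraries. They are also shown for Gadd45b and Plk2, the members with the smallest p in Dp16/D-KO against Dp16 below. Short cAMP response elements, the CArG box and the TATA box are in capitals.
Fos (chr12:85473640-85473889, plus strand): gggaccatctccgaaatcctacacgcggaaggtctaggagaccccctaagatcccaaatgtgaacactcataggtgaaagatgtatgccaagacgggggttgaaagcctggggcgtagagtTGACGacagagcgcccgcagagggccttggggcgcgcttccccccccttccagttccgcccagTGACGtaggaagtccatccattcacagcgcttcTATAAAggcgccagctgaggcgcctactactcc
Nr4a1 (chr15:101266596-101266845, plus strand): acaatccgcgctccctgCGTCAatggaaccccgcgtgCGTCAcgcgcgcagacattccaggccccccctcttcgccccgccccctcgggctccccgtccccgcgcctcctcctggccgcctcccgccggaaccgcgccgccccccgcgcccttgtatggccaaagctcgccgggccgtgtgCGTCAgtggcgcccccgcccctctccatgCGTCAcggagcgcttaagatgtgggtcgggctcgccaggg
Npas4 (chr19:4989972-4990221, minus strand): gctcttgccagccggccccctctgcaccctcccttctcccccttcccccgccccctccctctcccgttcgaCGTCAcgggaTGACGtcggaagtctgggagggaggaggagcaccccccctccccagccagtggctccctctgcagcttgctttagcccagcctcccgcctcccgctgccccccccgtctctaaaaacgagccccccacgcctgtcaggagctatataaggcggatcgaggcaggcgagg
Egr2 (chr10:67537619-67537868, plus strand): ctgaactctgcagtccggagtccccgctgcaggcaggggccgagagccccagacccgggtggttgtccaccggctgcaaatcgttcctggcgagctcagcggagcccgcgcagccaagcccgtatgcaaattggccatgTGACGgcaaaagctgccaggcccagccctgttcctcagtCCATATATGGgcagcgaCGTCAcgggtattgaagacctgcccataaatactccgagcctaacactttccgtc
Gadd45b (chr10:80929841-80930090, plus strand): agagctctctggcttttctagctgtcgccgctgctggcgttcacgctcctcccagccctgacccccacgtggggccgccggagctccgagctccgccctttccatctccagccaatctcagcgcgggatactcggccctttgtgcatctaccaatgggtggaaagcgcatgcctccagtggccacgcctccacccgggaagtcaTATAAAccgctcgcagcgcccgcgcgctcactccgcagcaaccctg
Plk2 (chr13:110394794-110395043, plus strand): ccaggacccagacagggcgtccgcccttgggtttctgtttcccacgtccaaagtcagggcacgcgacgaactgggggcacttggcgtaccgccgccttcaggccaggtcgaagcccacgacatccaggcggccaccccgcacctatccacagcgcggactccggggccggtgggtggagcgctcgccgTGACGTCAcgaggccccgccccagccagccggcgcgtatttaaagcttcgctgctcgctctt
Fos, Npas4 and Egr2 each show a pair of short sites in these stretches and Nr4a1 shows 4. In Plk2 the 2 overlapping short sites form the full element, and a further short site lies after the start site, outside the stretch. Gadd45b shows a TATA box and no short site in this window.

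The genes spanned a wide range of levels, which RPKM allows to be compared roughly between genes because it is scaled to gene length. The deposited spans of Jun, Egr2, Dusp1, Homer1, Inhba and Atf3 differ most from the GENCODE annotation, that of Egr2 starting at 308976 instead of 67535475. Whether this bears on their RPKM was not tested. On average over 23 libraries 3 exceeded 50 RPKM, 18 lay between 10 and 50, 18 between 1 and 10, and 2 below 1. The highest were Vgf (96.4 RPKM) and Scg2 (85.2 RPKM), both precursors of secreted neuropeptides of the granin family, followed by Plk2 (66.1 RPKM), a polo-like kinase that weakens synapses after prolonged activity. Arc (38.8 RPKM), which removes AMPA receptors from the synapse, and the transcription factor gene Egr1 (38.7 RPKM) came next. Among the rapid transcription factors the order was Egr1, Egr3 (33.3), Jun (31.96), Nr4a1 (27.3), Junb (26.9), Nr4a2 (18.2), Nr4a3 (17.4), Egr4 (12.5), Fosl2 (9.87), Fosb (4.74), Fos (4.36), Npas4 (4.36), Egr2 (0.760) and Atf3 (0.462 RPKM). Neighbours in that order overlapped in their ranges across libraries, such as Fosb and Fos at 3.25 to 8.23 and 1.82 to 8.53 RPKM, except that Egr2, at 0.16 to 1.5 RPKM, lay wholly below Npas4 at 2.50 to 8.39 RPKM and below Fos. The 2 lowest genes lie where RPKM rounded to 2 decimals is coarse, since Egr2 fell to 0.16 RPKM in WT M2. RPKM is given per gene, so the activity-induced short form of Homer1, the inducible repressor form of Crem and the separate promoters of Bdnf cannot be told apart here.

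**Figure D1:**
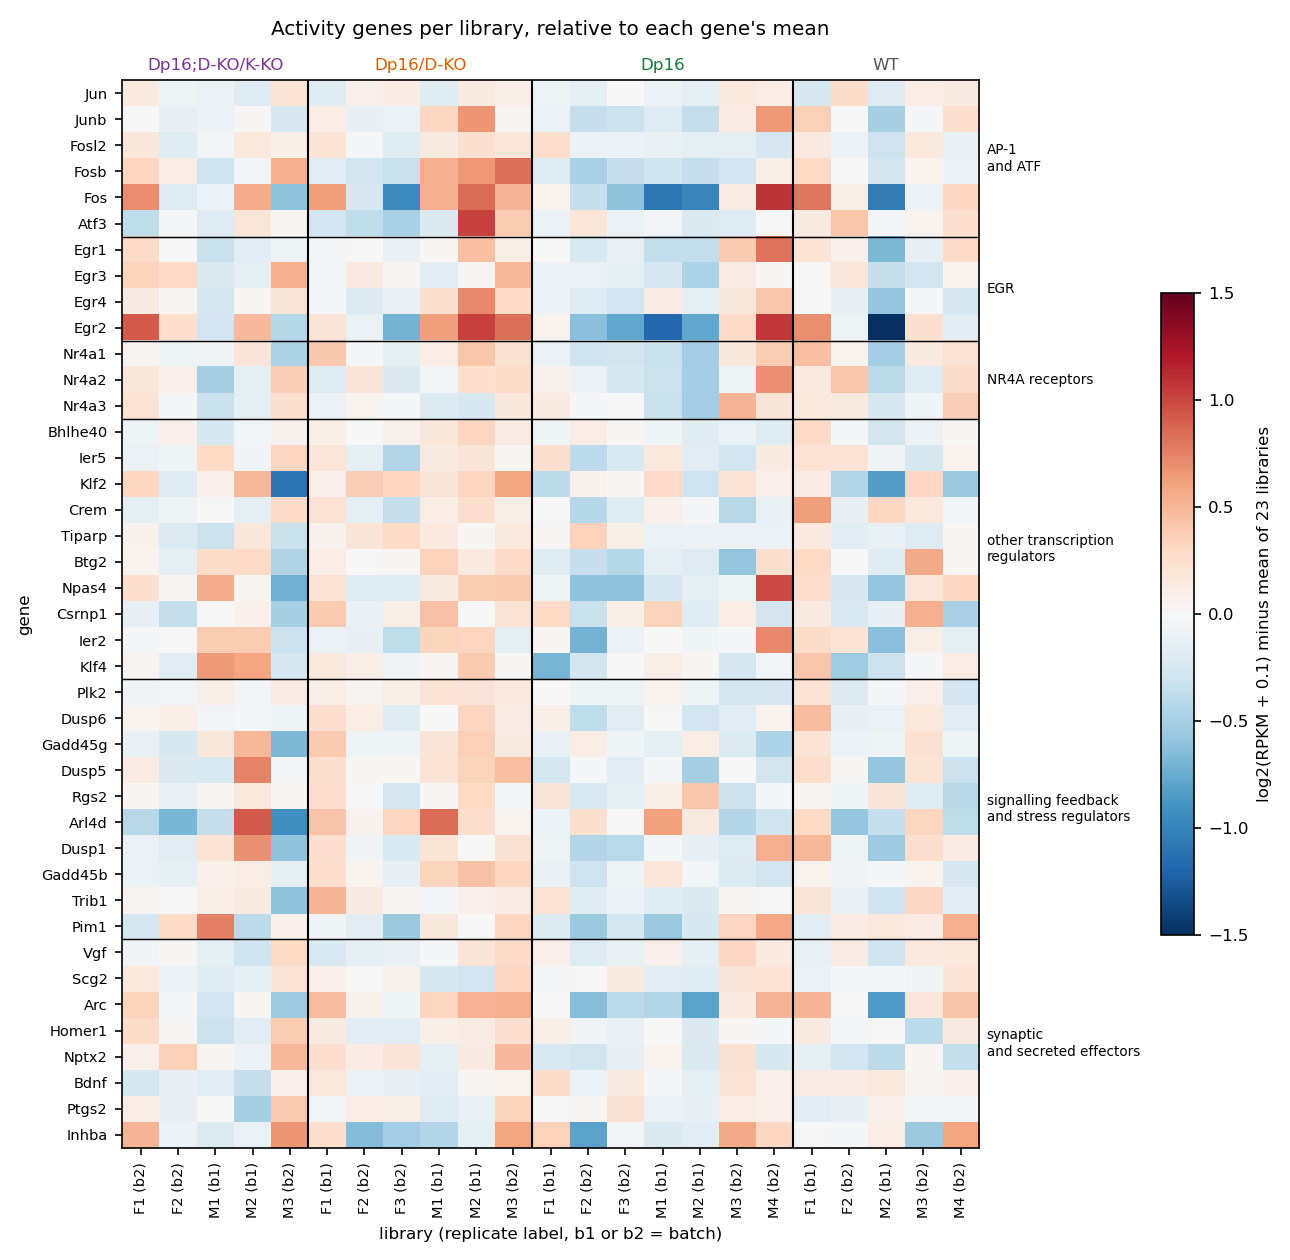
Level of each of the 41 genes (rows, grouped by role and ordered by mean level) in each of 23 libraries (columns, by group, with the batch in parentheses), as log2(RPKM + 0.1) minus the gene's mean over all libraries. Fos, Egr2, Arc, Junb, Egr1 and Nr4a1 are high together in Dp16 M4 and low together in WT M2. They do not always go together: in Dp16;D-KO/K-KO M2, Fos is above its mean and Egr1 below.

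Differences between libraries of 1 genotype were larger for these genes than for most. After group, batch and sex letter were taken out, the SD between libraries on the log2(RPKM + 0.1) scale had a median of 0.24 over the 40 tested genes, against 0.13 over all 13971 tested genes, and 37 of the 40 were above that overall median. Egr2 (0.76), Fos (0.72), Inhba (0.45), Npas4 (0.44) and Arc (0.43) had the largest SD of the 40. Jun (0.11), Plk2 (0.11) and Gadd45b (0.12) had the smallest. The highest library exceeded the lowest by 9.38-fold for Egr2 and 4.69-fold for Fos, against 1.42-fold for Plk2.

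Values in single libraries show this, and those of Dp16;D-KO/K-KO and WT are given in the order F1, F2, M1, M2, M3 and F1, F2, M2, M3, M4. Fos was 6.55, 3.44, 3.73, 5.88 and 2.58 RPKM in Dp16;D-KO/K-KO, and 1.99 to 7.17 with a median of 5.75 in Dp16/D-KO. Fos ran from 1.82 to 8.53 RPKM with a median of 3.09 in Dp16, and was 6.98, 4.22, 1.86, 3.71 and 4.92 in WT. The groups overlapped, and each held libraries several-fold apart. Egr2 was 1.36, 0.82, 0.53, 0.98 and 0.47 RPKM in Dp16;D-KO/K-KO, and 0.37 to 1.47 with a median of 0.935 in Dp16/D-KO. Egr2 ran from 0.24 to 1.5 RPKM with a median of 0.40 in Dp16, and was 1.15, 0.63, 0.16, 0.81 and 0.59 in WT. The high libraries, Dp16 M4, Dp16/D-KO M2 and Dp16;D-KO/K-KO F1, and the low ones, WT M2 and Dp16 M1, were also among the highest and lowest for Fos. Arc was 47.1, 36.9, 30.5, 37.9 and 25.4 RPKM in Dp16;D-KO/K-KO, and 35.5 to 54.2 with a median of 48.9 in Dp16/D-KO. Arc ran from 21.2 to 53.03 RPKM with a median of 28.01 in Dp16, and was 53.00, 37.4, 20.5, 42.2 and 50.1 in WT. Arc showed the same overlap, with 20.5 RPKM in WT M2 and 53.0 in WT F1. Egr1 was 46.03, 37.5, 29.9, 33.5 and 35.9 RPKM in Dp16;D-KO/K-KO, and 34.8 to 51.7 with a median of 37.8 in Dp16/D-KO. Egr1 ran from 29.1 to 66.3 RPKM with a median of 34.8 in Dp16, and was 43.5, 39.7, 23.6, 34.7 and 46.1 in WT. Egr1, an EGR zinc finger factor, was highest in Dp16 M4 and lowest in WT M2. Junb was 26.5, 24.04, 24.7, 26.5 and 22.2 RPKM in Dp16;D-KO/K-KO, and 24.1 to 41.6 with a median of 27.7 in Dp16/D-KO. Junb ran from 20.5 to 41.2 RPKM with a median of 22.9 in Dp16, and was 33.7, 26.5, 18.6, 25.9 and 31.4 in WT. Junb, an AP-1 subunit, was also at its Dp16 maximum in M4. Nr4a1 was 27.5, 25.3, 25.8, 30.5 and 19.3 RPKM in Dp16;D-KO/K-KO, and 24.2 to 35.6 with a median of 30.1 in Dp16/D-KO. Nr4a1 ran from 18.8 to 34.9 RPKM with a median of 22.1 in Dp16, and was 36.5, 27.8, 18.8, 29.5 and 31.03 in WT. The orphan receptor gene Nr4a1 again had WT F1 at the top and Dp16 M2 and WT M2 at the bottom.

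Npas4 was 5.01, 4.25, 6.22, 4.32 and 2.50 RPKM in Dp16;D-KO/K-KO, and 3.64 to 5.53 with a median of 4.71 in Dp16/D-KO. Npas4 ran from 2.72 to 8.39 RPKM with a median of 3.79 in Dp16, and was 5.02, 3.46, 2.78, 4.75 and 5.23 in WT. Npas4, a transcription factor gene that in the brain responds to neuronal activity in particular and organises inhibitory synapses, was again highest in Dp16 M4. Egr4 was 13.5, 12.5, 10.3, 12.5 and 14.04 RPKM in Dp16;D-KO/K-KO, and 10.6 to 20.3 with a median of 13.3 in Dp16/D-KO. Egr4 ran from 10.1 to 16.4 RPKM with a median of 11.6 in Dp16, and was 12.2, 11.3, 8.18, 12.02 and 10.2 in WT. Egr4 was highest in Dp16/D-KO M2 with 20.3 RPKM, the library that was also highest for Junb (41.6 RPKM). Fosb was 5.74, 4.98, 3.70, 4.44 and 6.66 RPKM in Dp16;D-KO/K-KO, and 3.62 to 8.23 with a median of 5.43 in Dp16/D-KO. Fosb ran from 3.25 to 4.89 RPKM with a median of 3.70 in Dp16, and was 5.67, 4.60, 3.78, 4.76 and 4.29 in WT. Fosb was at 6.75 to 8.23 RPKM in 3 of the 6 Dp16/D-KO libraries (M1, M2 and M3) and at most 4.11 RPKM in the 3 with the letter F, so that group was the most spread of the 4 for this AP-1 subunit. WT M2 held the lowest value of 9 of the 41 genes and Dp16;D-KO/K-KO M3 of 8, while Dp16 M4 and Dp16;D-KO/K-KO M3 held the highest value of 6 each.

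A chosen set of 9 rapid genes moved together from library to library, to differing degrees. The 9 were Fos, Fosb, Junb, Egr1, Egr2, Egr4, Arc, Npas4 and Nr4a1. For each, the Pearson correlation with the mean of the other 8 was computed across the 23 libraries. Group, batch and sex letter were taken out first. This correlation is a description of libraries that share their tissue piece and depth among all genes. It was 0.958 for Egr2, 0.942 for Arc, 0.938 for Fos, 0.926 for Egr1, 0.925 for Junb and 0.918 for Nr4a1. It was 0.761 for both Egr4 and Npas4 and 0.567 for Fosb. Without the 2 libraries farthest from the median of the 9 genes, WT M2 and Dp16 M4, it was 0.940 for Egr2, 0.908 for Fos and 0.533 for Fosb. Of the 40 tested genes 17 correlated above 0.5, against 3.68% of all tested genes, a share that includes the 9 genes chosen to set the mean. The closest pairs were Junb and Egr1 (r = 0.968, rho = 0.909, 0.953 without the 2 farthest libraries), Arc and Nr4a1 (r = 0.947, rho = 0.928, 0.916 without 2) and Fos and Egr2 (r = 0.943, rho = 0.919, 0.923 without 2). Among the 36 pairs of the 9 genes the median r was 0.784, and the lowest was 0.247, that of Fosb and Npas4.

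**Figure D2:**
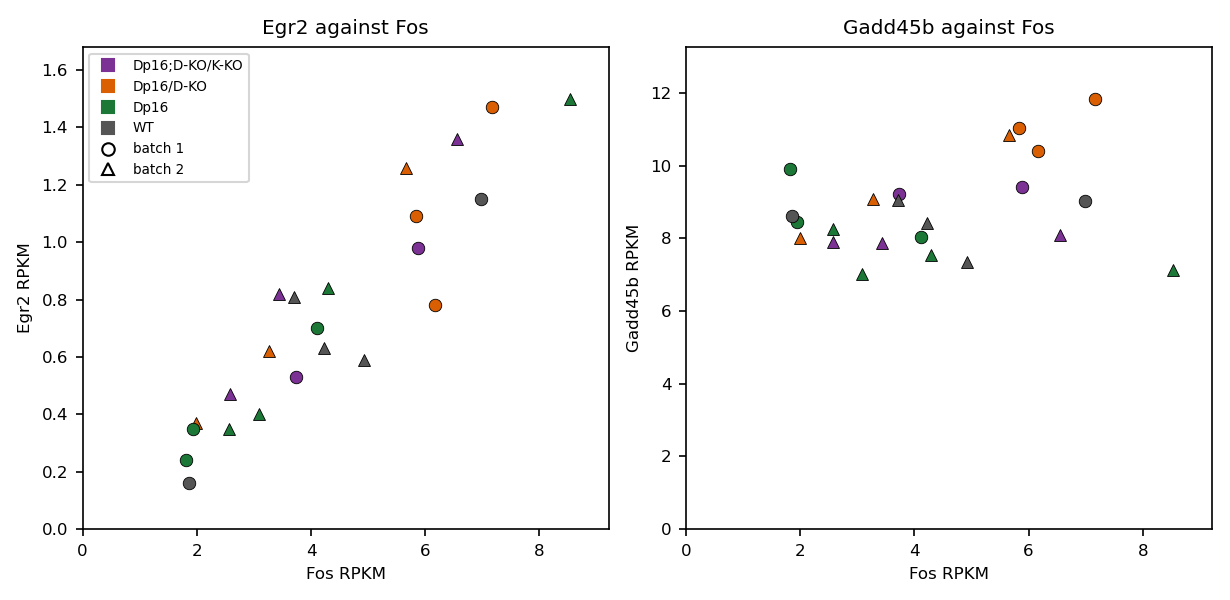
RPKM of Egr2 against Fos (left) and of Gadd45b against Fos (right) in each of 23 libraries, coloured by group, with circles for batch 1 and triangles for batch 2. Egr2 follows Fos across libraries of every group, while Gadd45b is at 10.4 to 11.8 RPKM in 4 of the 6 Dp16/D-KO libraries and shows little relation to Fos.

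Other members ran from near the rapid genes to no relation with them. Ier2 (0.777), the MAP kinase phosphatase genes Dusp1 (0.729) and Dusp6 (0.691), and Nr4a2 (0.712) were closest to the mean of the 9 rapid genes, and Ier2 and Dusp1 dropped to 0.596 and 0.522 without WT M2 and Dp16 M4. Of the remaining tested rapid transcription factors, Nr4a3 had 0.558, Fosl2 0.501, Egr3 0.420 and Jun 0.219. Homer1 had 0.314, Bdnf 0.146, Gadd45b 0.172, Nptx2 -0.02, Plk2 -0.14 and Ptgs2 -0.30. Fos and Gadd45b correlated by 0.124 (rho = 0.145), Fos and Plk2 by -0.24 (rho = -0.22), and Fos and Nptx2 by -0.16 (rho = -0.14). Gadd45b, Plk2 and Nptx2, which had the smallest p of the members in Dp16/D-KO against Dp16 by limma, were not among those that varied with Fos. Fosb came next by p and correlated with Fos by 0.552 (rho = 0.494). The largest changes in that comparison were those of Egr2, Arc and Fosb, all among the 9 rapid genes. The SD between libraries was 0.12 for Gadd45b and 0.11 for Plk2, against 0.72 for Fos, and a smaller SD gives a smaller p for the same change. Outside the list, the 10 genes most like the 9 rapid genes were 2810006K23Rik (0.804), Rrp7a (0.796), Ctr9 (0.779), Rabl6 (0.754), Arid5a (0.752), Nolc1 (0.751), Arid3b (0.751), Ndel1 (0.750), Rhof (0.747) and Arap3 (0.747).

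**Figure D3:**
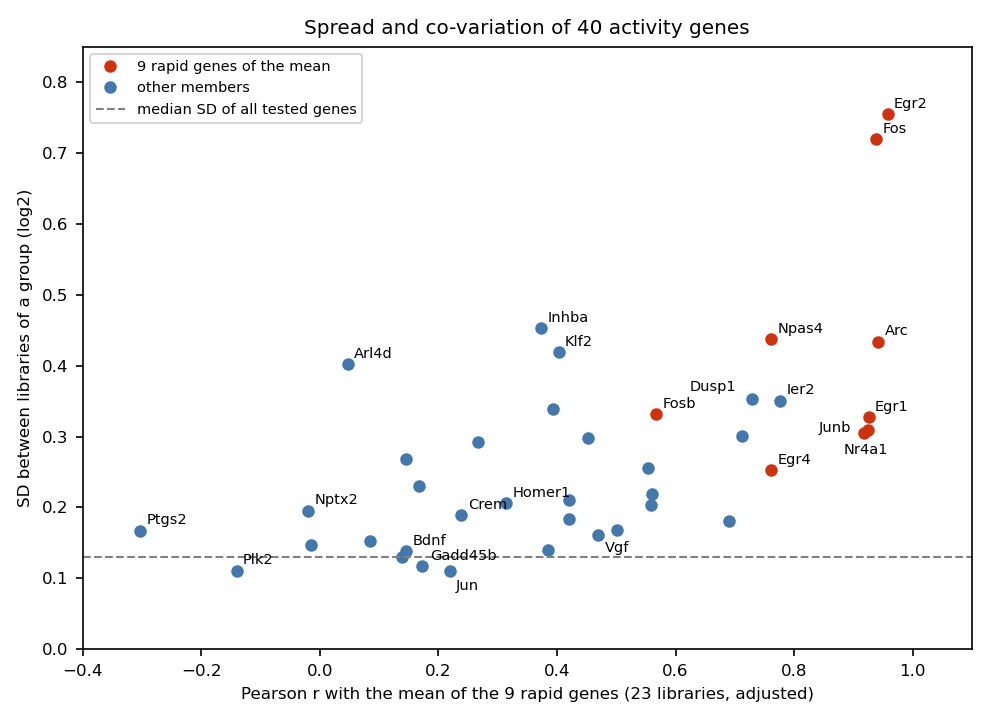
For each of 40 tested genes, the Pearson correlation across 23 libraries with the mean of 9 rapid genes (x axis; for the 9 themselves, red, the mean of the other 8) and the SD between libraries of a group (y axis, log2 scale), both after group, batch and sex letter were taken out. Egr2 and Fos lie at the upper right, while Plk2, Gadd45b and Jun lie below the dashed median SD of all tested genes.

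Marker genes of hippocampal cell types were set beside this variation. The mean of 8 markers of CA2 and CA3 pyramidal neurons correlated with the mean of the 9 rapid genes by -0.66 (rho = -0.62, -0.56 without WT M2 and Dp16 M4), 7 markers of CA1 neurons by 0.371 (0.196 without the 2 libraries), 12 markers of oligodendrocytes and myelin by -0.34 and 10 of the choroid plexus by -0.41. The 10 markers of dentate granule neurons gave 0.058. Among the 7 CA1 markers, Dcn is also a marker of the meninges. None of these markers was at 0 in any group, and their part in the variation of the activity genes was not tested. In bulk tissue, fewer cells of a type and less RNA per cell cannot be told apart.

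Dp16 hippocampi showed no activity gene past the threshold against WT. None of the 40 genes was called at an adjusted p under 0.05 by limma with group, batch and sex letter in the model, where 1.45% of all tested genes were called, and 28 of the 40 had a log2 change below 0 and 12 above, with a median of -0.05 against -0.01 over all genes. At an unadjusted p under 0.05, 2 of the 40 were lower in Dp16 and none was higher, where 13.8% of all tested genes (1928) were at such a p. None of the members lies on chromosome 16, while all tested genes include genes of the duplicated stretch such as Dyrk1a and Kcnj6. The shares of all tested genes in the comparisons with WT are therefore not shares of like genes. Crem was 4.43, 4.63, 4.88, 4.44 and 5.98 RPKM in Dp16;D-KO/K-KO, and 3.81 to 5.89 with a median of 5.23 in Dp16/D-KO. Crem ran from 3.59 to 5.16 RPKM with a median of 4.53 in Dp16, and was 7.61, 4.47, 6.06, 5.47 and 4.76 in WT. Crem, whose products include a repressor of cAMP response genes, was at or below the WT median in all 7 Dp16 libraries, and the groups overlapped. Crem averaged 4.41 ± 0.61 RPKM in Dp16 and 5.67 ± 1.25 in WT (SD, n = 7 and 5), a log2 change of -0.35 ± 0.11 (SE) with an adjusted p of 0.122 by limma. Btg2 was 4.77, 4.15, 5.59, 5.62 and 3.33 RPKM in Dp16;D-KO/K-KO, and 4.60 to 5.85 with a median of 5.05 in Dp16/D-KO. Btg2 ran from 3.01 to 5.45 RPKM with a median of 4.01 in Dp16, and was 5.66, 4.56, 4.04, 6.86 and 4.69 in WT. Btg2, an antiproliferative coregulator of transcription, averaged 3.96 ± 0.777 RPKM in Dp16 and 5.16 ± 1.11 in WT, a log2 change of -0.37 ± 0.14 with an adjusted p of 0.217 by limma. WT F1 and M3 hold the highest 2 WT values of Btg2, and WT F1 the highest of Crem. Without both libraries the log2 change was -0.21 for Crem (adjusted p 0.574) and -0.18 for Btg2 (adjusted p 0.737).

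By role, the 5 tested AP-1 genes had a median log2 change of -0.10 in Dp16 against WT, the 4 EGR genes 0.02, the 3 NR4A genes -0.11, the 10 other transcription regulators -0.07, the 10 feedback and stress regulators -0.09 and the 8 synaptic and secreted effectors 0.01, with none called in any of these groups. Dusp6, a phosphatase of ERK, had a log2 change of -0.18 (adjusted p 0.444 by limma), Egr4 0.21 (adjusted p 0.518), and Klf2, the largest positive change, 0.27 (adjusted p 0.633). For Fos the log2 change was -0.26 with a 95% interval of -1.05 to 0.52, and for Arc it was -0.29 with an interval of -0.76 to 0.19. Without WT F1 and M3 the median over the 40 genes was 0.03 and none was called, so the sign of the median rests on these libraries. Dusp6 was then at -0.01, Egr4 at 0.36 and Klf2 at 0.60 (adjusted p 0.992, 0.445 and 0.391). Beside this comparison, the summed level of 10 dentate granule neuron markers was 96.1 to 112.8 RPKM (median 101.7) in Dp16, against 115.7 to 129.7 (median 123.3) in WT, without overlap. That of 7 CA1 markers was 202.3 to 228.6 RPKM (median 209.8) in Dp16, against 180.2 to 205.8 (median 193.4) in WT, and the part of these in the result was not tested.

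Against Dp16, the libraries labelled Dp16/D-KO had most activity genes at higher levels, with 1 gene past the threshold. Of the 40 genes 36 had a log2 change above 0 and 4 below, where 52.9% of all genes were above 0. Their median was 0.18, against 0.01 over all genes. Many of these genes vary together between libraries, so such counts, here and in the other comparisons, are not counts of independent values. The median over members had an SD of 0.13 between libraries after group, batch and sex letter were taken out. At an unadjusted p under 0.05, 10 of the 40 were higher and none lower, where 15.2% of all tested genes (2119) were at such a p in either direction. Gadd45b was the 1 gene called, where 0.143% of all tested genes (20) were called. Gadd45b was 8.11, 7.88, 9.22, 9.43 and 7.90 RPKM in Dp16;D-KO/K-KO, and 8.02 to 11.8 with a median of 10.6 in Dp16/D-KO. Gadd45b ran from 7.03 to 9.91 RPKM with a median of 8.04 in Dp16, and was 9.04, 8.42, 8.63, 9.06 and 7.36 in WT. Gadd45b, a stress-induced gene linked in neurons to activity-dependent removal of DNA methylation, was above the highest Dp16 value in 4 of the 6 Dp16/D-KO libraries, and the groups overlapped. It averaged 10.2 ± 1.41 RPKM in Dp16/D-KO and 8.06 ± 0.984 in Dp16 (SD, n = 6 and 7), a log2 change of 0.33 ± 0.07 (SE, 95% interval 0.19 to 0.46) with an adjusted p of 0.047 by limma. The change was 0.33 within batch 1 and 0.31 within batch 2. The call stood close to the threshold: over 29 alternatives the adjusted p ran from 0.0273 to 0.871 and 10 kept the call, and of 13 fits that each left out 1 library of these groups 3 kept it. These were the fits without Dp16 F3, Dp16 M1 and Dp16/D-KO F3, and leaving out any of the other 10 libraries gave an adjusted p of 0.0583 to 0.162. In the authors' deposited table Gadd45b has a log2 fold change of 0.33 and an adjusted p of 0.0520 for this comparison.

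Plk2 and Nptx2 followed. Plk2 was 63.6, 64.2, 69.7, 64.2 and 71.8 RPKM in Dp16;D-KO/K-KO, and 67.5 to 76.3 with a median of 71.8 in Dp16/D-KO. Plk2 ran from 55.1 to 68.2 RPKM with a median of 62.8 in Dp16, and was 75.8, 57.2, 65.2, 69.5 and 53.8 in WT. Plk2 was above the highest Dp16 value in 5 of the 6 Dp16/D-KO libraries. It averaged 72.1 ± 3.42 RPKM in Dp16/D-KO and 61.9 ± 5.02 in Dp16, a log2 change of 0.21 ± 0.06 with an adjusted p of 0.129 by limma, and without WT F1 and M3 in the shared model it passed the threshold (adjusted p 0.0449). Nptx2 was 20.1, 24.4, 19.6, 17.9 and 27.01 RPKM in Dp16;D-KO/K-KO, and 17.3 to 26.7 with a median of 21.4 in Dp16/D-KO. Nptx2 ran from 15.7 to 22.4 RPKM with a median of 16.4 in Dp16, and was 17.4, 15.5, 14.5, 19.5 and 14.7 in WT. Nptx2, a secreted pentraxin that clusters AMPA receptors on interneurons, was above the Dp16 median in all 6 Dp16/D-KO libraries and averaged 21.7 ± 3.05 RPKM in Dp16/D-KO and 17.7 ± 2.47 in Dp16, a log2 change of 0.30 ± 0.10 with an adjusted p of 0.171 by limma. The largest log2 changes were those of Egr2 (0.61 ± 0.39, adjusted p 0.471), Arc (0.55 ± 0.22, adjusted p 0.241) and Fosb (0.50 ± 0.17, adjusted p 0.178), none called. Btg2 had 0.38 (adjusted p 0.183), with all 6 Dp16/D-KO libraries above the Dp16 median. The lowest changes were those of Inhba, a subunit of activin, at -0.13 (adjusted p 0.82) and the neurotrophin gene Bdnf at -0.09 (adjusted p 0.605).

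**Figure D4:**
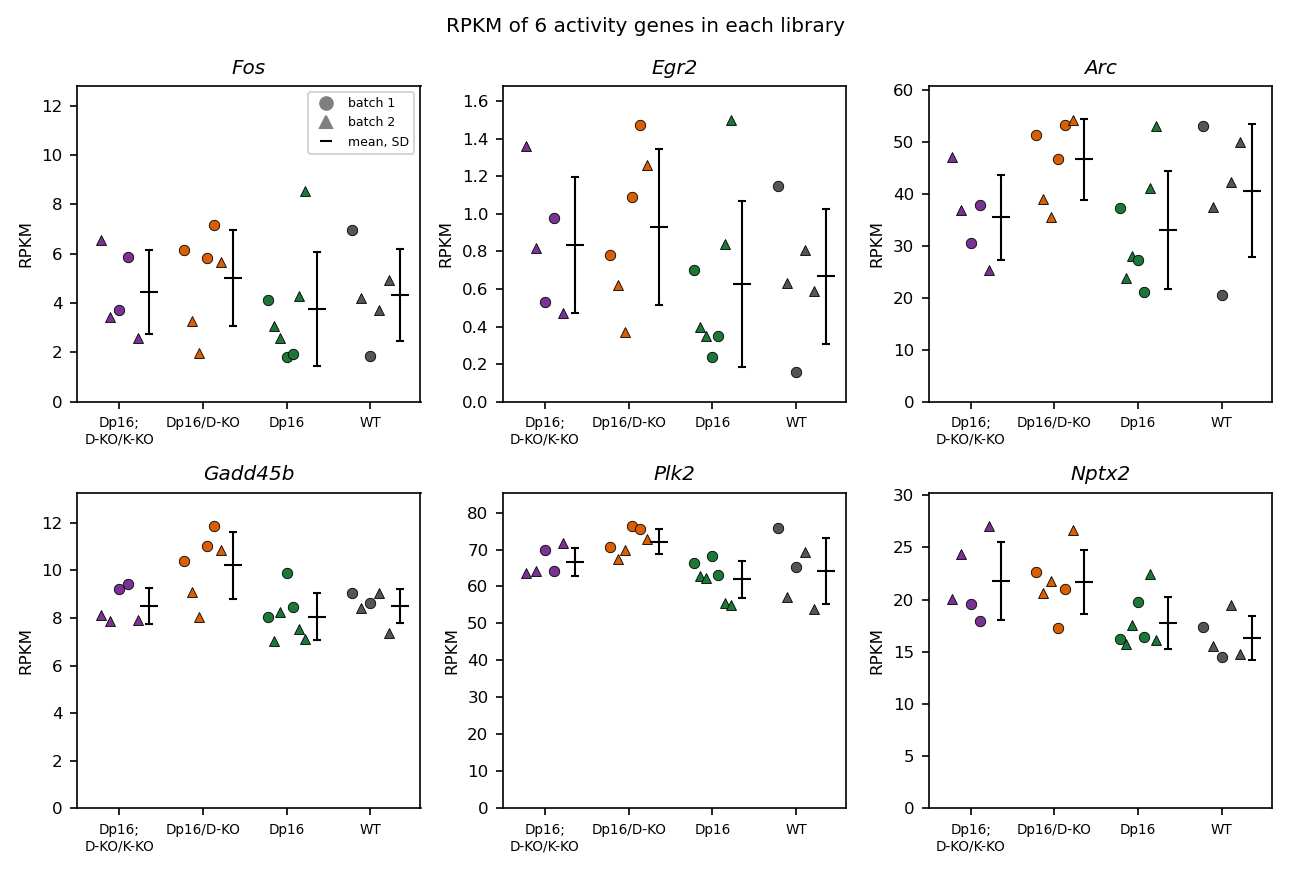
RPKM of 6 genes in each library, by group from left to right (Dp16;D-KO/K-KO, Dp16/D-KO, Dp16, WT), with circles for batch 1, triangles for batch 2, and the mean with its SD in black. Gadd45b is called between Dp16/D-KO and Dp16 (10.2 and 8.06 RPKM on average), while the libraries of Fos and Egr2 spread over several-fold in every group.

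By role, the median log2 change of Dp16/D-KO against Dp16 was 0.24 in the 5 AP-1 genes, 0.20 in the 4 EGR genes, 0.14 in the 3 NR4A genes, 0.18 in the 10 other transcription regulators and 0.21 in the 10 feedback and stress regulators, which include Gadd45b. It was 0.01 in the 8 synaptic and secreted effectors, where Scg2, Bdnf and Inhba were below 0 and Vgf, Ptgs2 and Homer1 were at most 0.09. Within batch 1 the median of the 40 genes was 0.25 (34 above 0), and within batch 2 it was 0.11 (32 above 0). Fos, not called, was 6.17, 5.84 and 7.17 RPKM in the batch 1 libraries of Dp16/D-KO, against 4.11, 1.82 and 1.94 in those of Dp16. In batch 2 Fos was 3.27, 1.99 and 5.66 RPKM in Dp16/D-KO, against 3.09, 2.57, 4.30 and 8.53 in Dp16, so the groups separated in the first batch and overlapped in the second. The difference of the Fos change between batches was -1.66 on the log2 scale (batch 2 minus batch 1) with an adjusted p of 1 by limma, and none of the 40 genes nor any other gene was called for such a difference, with 3 of the 40 and 352 of all genes at an unadjusted p under 0.05.

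Myelin markers moved with this comparison. All 12 markers of oligodendrocytes and myelin had a log2 change below 0 in Dp16/D-KO against Dp16, with a median of -0.45 and none called, and their summed level was 1380 to 2861 RPKM (median 2289) in Dp16/D-KO, against 2381 to 3468 (median 3173) in Dp16. All 10 choroid plexus markers and all 7 of ependyma were also below 0, with medians of -1.17 and -0.56, and 5 of 7 CA1 markers were above 0 (median 0.15). With the mean of the myelin markers as a covariate, an alternative chosen after these values were seen, the median over the 40 activity genes was 0.05 instead of 0.18, and Gadd45b had a log2 change of 0.25 with an adjusted p of 0.871 by limma. The myelin markers differ between these groups, so this fit cannot separate their part from that of the genotype label. The same limit holds for this covariate in the other comparisons with Dp16/D-KO below. The part of these cell type markers in the result was not tested.

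In Dp16;D-KO/K-KO no activity gene was called against Dp16/D-KO or against Dp16. Against Dp16, where 0.0358% of all tested genes (5) were called, none of the 40 was, and 29 had a log2 change above 0 and 11 below with a median of 0.08. Bdnf was 8.64, 9.57, 9.25, 8.15 and 11.01 RPKM in Dp16;D-KO/K-KO, and 9.33 to 11.6 with a median of 10.2 in Dp16/D-KO. Bdnf ran from 9.37 to 12.6 RPKM with a median of 10.99 in Dp16, and was 11.3, 11.3, 11.6, 10.7 and 10.9 in WT. Bdnf, the neurotrophin that strengthens synapses, averaged 9.32 ± 1.09 RPKM in Dp16;D-KO/K-KO and 10.9 ± 1.18 in Dp16, a log2 change of -0.23 ± 0.08 with an adjusted p of 0.286 by limma. Egr3 was 41.4, 40.1, 28.2, 29.6 and 47.6 RPKM in Dp16;D-KO/K-KO, and 29.5 to 46.3 with a median of 33.7 in Dp16/D-KO. Egr3 ran from 23.6 to 35.7 RPKM with a median of 30.6 in Dp16, and was 32.6, 37.4, 25.9, 26.8 and 33.96 in WT. In Dp16;D-KO/K-KO the 3 batch 2 libraries, F1, F2 and M3, exceeded every Dp16 library, while M1 and M2 lay within the Dp16 range. Egr3 averaged 37.4 ± 8.28 RPKM in Dp16;D-KO/K-KO and 30.2 ± 3.90 in Dp16, a log2 change of 0.28 ± 0.10 with an adjusted p of 0.292 by limma. Nptx2 had a log2 change of 0.28 (adjusted p 0.303), Fosb 0.38 (adjusted p 0.424), Egr2 0.46 (adjusted p 0.723) and Arl4d, a small GTPase gene, -0.30 (adjusted p 0.642).

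Between Dp16;D-KO/K-KO and Dp16/D-KO, which differ by the correction of Kcnj6 in their labels, none of the 40 genes was called, and limma called 0% of all tested genes, with 1260 genes at an unadjusted p under 0.05. Of the 40, 32 had a log2 change below 0 and 8 above, with a median of -0.10, and 4 were lower and none higher at an unadjusted p under 0.05. Gadd45b averaged 8.51 ± 0.755 RPKM in Dp16;D-KO/K-KO and 10.2 ± 1.41 in Dp16/D-KO, a log2 change of -0.24 ± 0.07 with an adjusted p of 0.279 by limma. Tiparp was 4.96, 4.11, 3.77, 5.35 and 3.73 RPKM in Dp16;D-KO/K-KO, and 4.82 to 5.79 with a median of 5.26 in Dp16/D-KO. Tiparp ran from 4.41 to 6.05 RPKM with a median of 4.46 in Dp16, and was 5.26, 4.26, 4.39, 4.14 and 4.84 in WT. Tiparp, a poly-ADP-ribose polymerase family gene induced by the aryl hydrocarbon receptor, averaged 4.38 ± 0.732 RPKM in Dp16;D-KO/K-KO and 5.25 ± 0.342 in Dp16/D-KO, a log2 change of -0.25 ± 0.09 with an adjusted p of 0.364 by limma. Arl4d had a log2 change of -0.57 (adjusted p 0.418), Csrnp1 -0.33 (0.522), Arc -0.42 (0.649), Inhba 0.27 (0.821) and Ier5 0.10 (0.864). Myelin markers ran the other way here, with all 12 above 0 and a median of 0.41, and all 10 choroid plexus and 7 ependyma markers were also above 0 (medians 2.08 and 0.70). This comparison shares the Dp16/D-KO libraries with the one against Dp16, so the opposite signs of their medians are not independent. With the myelin covariate the median over the 40 genes was 0.03 instead of -0.10.

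**Figure D5:**
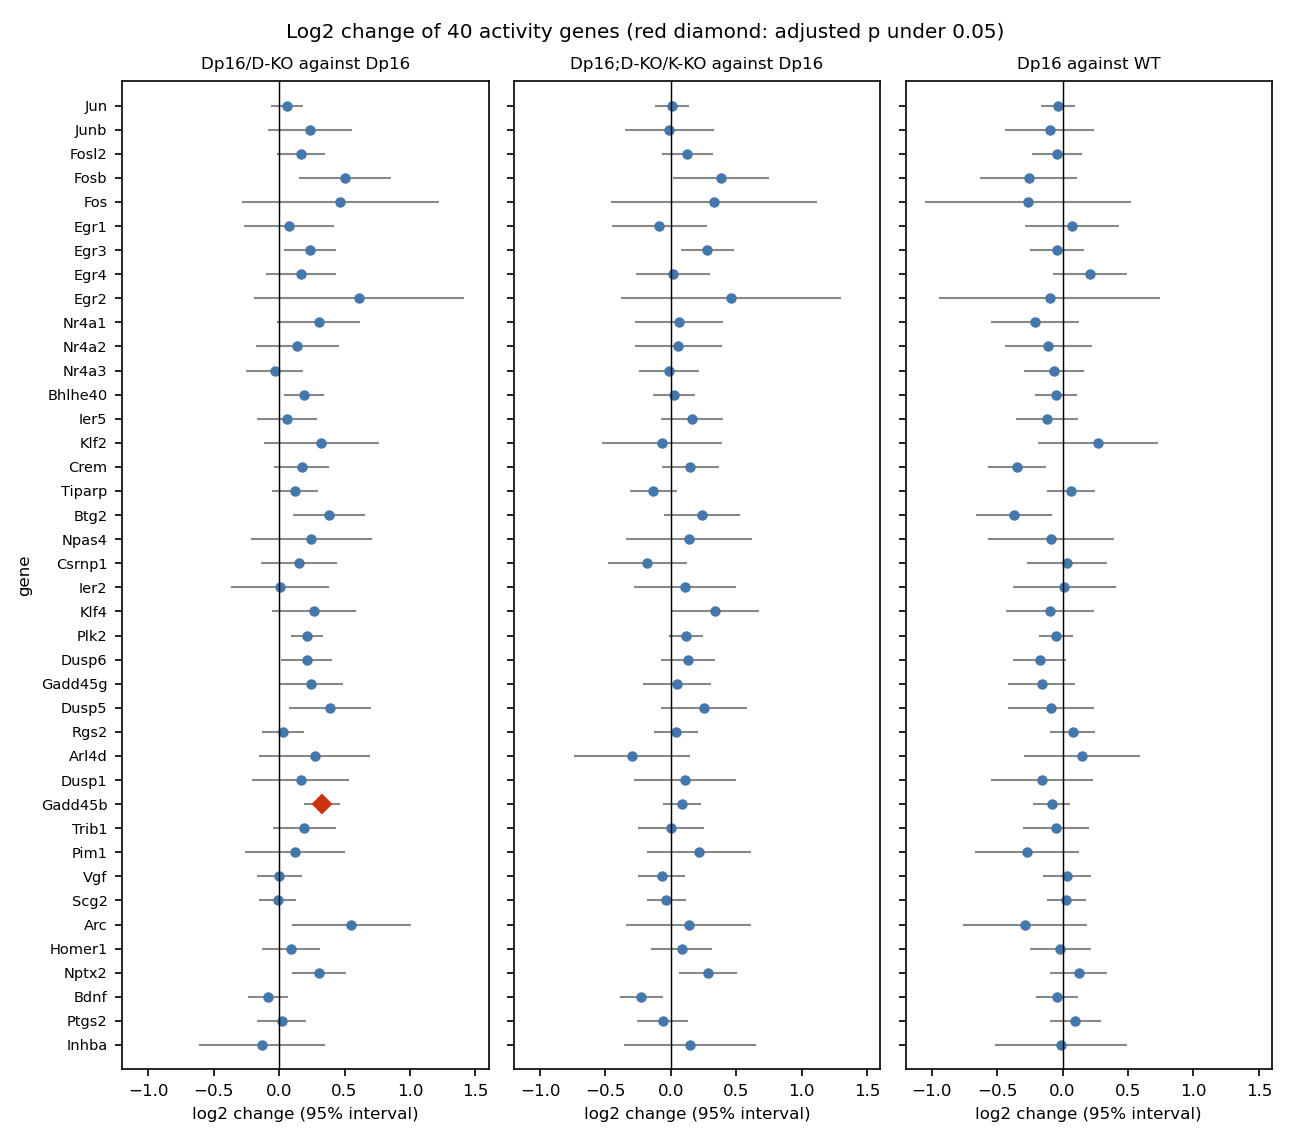
Log2 change of each of 40 genes (rows, in the order of the map of levels by library) in Dp16/D-KO against Dp16, Dp16;D-KO/K-KO against Dp16 and Dp16 against WT, with 95% intervals from limma. Gadd45b is past the threshold in Dp16/D-KO against Dp16 (red diamond, 0.33), no gene is past it in the other 2 panels, and the widest intervals are those of Fos and Egr2.

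Set against WT, Nptx2 had the smallest p of these genes in Dp16/D-KO. None of the 40 genes was called, where 1.28% of all tested genes were, and 34 had a log2 change above 0 and 6 below with a median of 0.13 (0.23 without WT F1 and M3). Cell type markers moved with this comparison too: all 12 myelin markers were below 0 (median -0.46, 1 called), as were all 10 of dentate granule neurons (-0.26, 1 called) and all 10 of the choroid plexus (-1.40, none called), and 5 of 7 CA1 markers were above 0 (0.18, 2 called). The largest change of the CA1 markers (0.61) was that of Dcn, which is also a marker of the meninges. With the myelin covariate the median over the 40 genes was -0.02. Nptx2 averaged 21.7 ± 3.05 RPKM in Dp16/D-KO and 16.3 ± 2.08 in WT (SD, n = 6 and 5), with 5 of the 6 Dp16/D-KO libraries above the highest WT library. Its log2 change was 0.43 ± 0.11 with an adjusted p of 0.0589 by limma, and without WT F1 and M3 it was 0.57 with an adjusted p of 0.0186. It also passed when WT F1, WT M3 or Dp16/D-KO M1 was left out singly (adjusted p 0.0375, 0.0308 and 0.0306). Gadd45b had a log2 change of 0.24 (adjusted p 0.104), Egr4 0.38 (0.223), Klf2 0.59 (0.247), Egr2 0.51 (0.636), Crem -0.18 (0.513) and Pim1 -0.15 (0.79). Gadd45b passed without WT M3 (adjusted p 0.0440) and with the letters of WT F1 and M3 exchanged and M3 set to batch 1 (0.0340), an alternative chosen after the label check. Without WT F1 and M3, Egr4 was at 0.54, Klf2 at 0.93, Egr2 at 1.02 and Crem at -0.03 (adjusted p 0.0989, 0.0668, 0.285 and 0.921), none called.

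In Dp16;D-KO/K-KO against WT none of the 40 genes was called, where 0.752% of all tested genes were, with 19 log2 changes above 0, 21 below and a median of -0.01. Within batch 1 the median was 0.13 (25 above 0), within batch 2 it was 0.04 (23 above 0), and without WT F1 and M3 it was 0.07, so the sign of the median depends on the libraries and terms used. Nptx2 averaged 21.8 ± 3.76 RPKM in Dp16;D-KO/K-KO and 16.3 ± 2.08 in WT (SD, n = 5 each), with 4 of 5 Dp16;D-KO/K-KO libraries above the highest WT library. The log2 change of Nptx2 was 0.41 ± 0.11 with an adjusted p of 0.133 by limma, and without WT F1 and M3 it was 0.55 with an adjusted p of 0.0448. Bdnf had a log2 change of -0.27 ± 0.08 (adjusted p 0.221), with all 5 Dp16;D-KO/K-KO libraries below the WT median. Egr3 had 0.24 (adjusted p 0.459), Crem -0.20 (0.598) and Egr2 0.36 (0.839). The direction of both Crem and Egr2 was unstable: Crem was at -0.49 within batch 1 and 0.10 within batch 2, and Egr2 ran from -0.0055 without WT M2 to 0.69 without WT F1. Without WT F1 and M3 together Crem was at -0.07 and Egr2 at 0.83. The 3 comparisons with WT share the WT libraries, so the changes of Nptx2 in both corrected groups are not independent of each other. In Dp16 against WT Nptx2 had a log2 change of 0.12 with an interval of -0.10 to 0.34.

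More of these genes were called between the batches than in any genotype comparison. As a share, they were called less often than all tested genes. With group and sex letter in the model, limma called 13 of the 40 genes between batch 2 and batch 1, 7 higher and 6 lower in batch 2, where 49.4% of all tested genes were called. WT M3 is counted in batch 2 here, as labelled, although it scored 0.05 on the batch scale above. The values between the batches are not given without it. Jun averaged 34.1 ± 2.56 RPKM in batch 2 and 29.2 ± 2.23 in batch 1 (SD, n = 13 and 10; log2 change 0.24 ± 0.05, adjusted p 0.000249). Scg2 averaged 91.1 ± 7.96 RPKM in batch 2 and 77.7 ± 5.96 in batch 1 (log2 change 0.24 ± 0.05, adjusted p 0.00102), and Egr3, Nr4a2, Nr4a3, Ptgs2 and Vgf were also higher in batch 2. Rgs2, which limits Gq signalling, averaged 10.2 ± 1.02 RPKM in batch 2 and 12.6 ± 1.18 in batch 1 (log2 change -0.30 ± 0.06, adjusted p 0.000423). Gadd45b averaged 8.21 ± 1.02 RPKM in batch 2 and 9.60 ± 1.20 in batch 1 (log2 change -0.19 ± 0.05, adjusted p 0.00411), and Gadd45g, Plk2, Crem and Arl4d were also lower in batch 2. Fos, Egr2, Arc, Npas4 and Nr4a1 were not called by batch. The strain background and the molecule label change together with the batch, so their parts cannot be told apart, and age is not given for batch 2. The protocols of both batches describe oligo(dT) selection, so the molecule label does not by itself mean another selection of RNA. Between the letters M and F none of the 40 genes was called, where 0.0429% of all tested genes (6) were, and Vgf (log2 change 0.18, adjusted p 0.443 by limma) and Pim1 (0.36, adjusted p 0.469) were higher in M at an unadjusted p under 0.05. None of the 40 was called without WT F1 and M3 (0.0787% of all tested genes) or with their letters exchanged and M3 in batch 1 (0.0716%). A difference of the Dp16 change against WT between the letters was called by limma in none of the 40 genes nor any other gene, with 2 of the 40 and 798 of all genes at an unadjusted p under 0.05.

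Genes around these in the pathway were compared in the same way. Of 30 genes of calcium, CREB, SRF and MEF2 signalling, all tested and none a member, 1 was called in 1 of the 6 comparisons. It was Prkaca, the catalytic subunit of protein kinase A, in Dp16/D-KO against WT (log2 change 0.17, adjusted p 0.0268 by limma), where 1.28% of all tested genes were called. In Dp16 against WT the smallest p values were those of Prkaca (log2 change 0.14, adjusted p 0.0796) and the nuclear calcium kinase gene Camk4 (0.21, adjusted p 0.0929). In Dp16/D-KO against Dp16 they were those of the NMDA receptor subunit gene Grin2b (-0.59, adjusted p 0.132) and Srf (0.15, adjusted p 0.189), and the list's median log2 change was 0.03. Over the 6 comparisons 0% to 1.45% of all tested genes were called. Of 42 other genes known to respond to neuronal activity, 39 were tested and none was called in any of them. Their median log2 change was -0.02 in Dp16 against WT, 0.10 in Dp16/D-KO against Dp16, -0.04 in Dp16;D-KO/K-KO against Dp16/D-KO and 0.05 in Dp16;D-KO/K-KO against Dp16. Of these, Ifrd1 and Sertad1 had the smallest p in Dp16/D-KO against Dp16 (log2 changes of 0.24 and 0.39, adjusted p 0.112 and 0.145), and Ifrd1 and the prodynorphin gene Pdyn in Dp16 against WT (-0.19 and -0.23, adjusted p 0.200 and 0.217). In the authors' deposited table none of the 41 genes has an adjusted p under 0.05 in any of the 6 comparisons. Of all genes with an adjusted p there, 0.28% to 0.971% are under 0.05 in a comparison.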

How the data were processed

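The 23 libraries were made from oligo(dT)-selected hippocampal RNA, per the labels' protocols, with single-end reads of 50 bases in batch 1. The deposited table gives RPKM for each gene and library to 2 decimals, beside the authors' deposited log2 fold changes and adjusted p-values. Alignment was with HISAT to mm10, per the submitters' processing notes. The sources used here do not give the counting, strand use or depth, so depth is unknown and no counting interval stands behind low values. RPKM summed to 353904 to 373054 per library.

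From these, log2(RPKM + 0.1) of 13971 genes with a mean of at least 0.5 (of 19064 with values) was fitted with limma 3.58.1 (R 4.3.3, intensity trend, 4 groups, batch, sex letter, 17 residual degrees of freedom). Tests were two-sided, adjusted by Benjamini-Hochberg over all tested genes and called at an adjusted p under 0.05. The pseudocount of 0.1 understates changes of low genes such as Egr2. The fit was tested on simulated data. Promoters came from RefSeq (GRCm38.p6).

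Values by library (in groups of over 5 the lowest, median and highest) are given for Fos, Fosb, Junb, Egr1, Egr2, Egr4, Arc, Npas4, Nr4a1 and Gadd45b, any called gene and the 2 with the smallest p in each comparison. Named with a log2 change are the 4 with the smallest p and the 2 largest changes each way. The members and lists were chosen with earlier results of these data known. The alternatives left out each library, changed the pseudocount, filter, scaling, covariates or batch, or used a replicate block.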

Additional observations from a re-analysis of the deposited data

Results flagged for a closer look

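Within a group of 5 to 7 libraries, a value was singled out where the gap between the highest or lowest library and its neighbour was a large share of the whole range (Dixon's test at the 95% level). Of 68 sets (17 genes in 4 groups) 5 were singled out, where chance singles out about 5% of sets. In Dp16, the library M4 had 8.53 RPKM of Fos where the next highest had 4.30, a gap of 0.63 of the range. The same library had 41.2 RPKM of Junb against 28.7 in the next (0.603 of the range) and 8.39 RPKM of Npas4 against 3.96 (0.781). Dp16 M4 was thus the library set apart in 3 of the 5. The library M2 labelled Dp16/D-KO had 51.7 RPKM of Egr1 against 40.5 in the next (0.667), and Dp16 F2 had 6.05 RPKM of Tiparp against 5.06 (0.604). The cause was not tested.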

How the results depend on the processing

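Of 1502 pairs of a value and an alternative, 1437 were counted as the same. For a single gene this meant the same direction and side of the threshold. For a count it meant an equal or close count. For a median it meant a shift under 0.1343, the SD between libraries of the median over members. A median could thus change sign and still be counted as the same. Among single genes 19 values lost and 10 gained the threshold and 6 changed sign, and 30 counts or medians moved. The count of 1 gene called (Gadd45b) in Dp16/D-KO against Dp16 was 0 with no filter on low values, no batch term, no sex letter term, only the 2 groups, no trend, either batch alone and the myelin covariate. The call held under both other pseudocounts, a mean of at least 1, size-factor scaling and robust fitting. Without WT F1 and M3 the count was 2 there, 2 in Dp16/D-KO against WT and 1 in Dp16;D-KO/K-KO against WT. With those letters exchanged and M3 in batch 1 it was 1 in Dp16/D-KO against WT. Leaving out 1 library at a time gave 0 to 1 in Dp16/D-KO against Dp16 and 0 to 2 in Dp16/D-KO against WT. Replicate labels were not taken to pair libraries, since deviations under the same label correlated above 0.1 in 14 of 26 pairs and under other labels in 12 of 26. With the replicate block the counts were 0 in Dp16/D-KO against Dp16 and 1 in each corrected group against WT (Nptx2). The median over the 40 genes was 0.1267 in batch 1 alone for Dp16;D-KO/K-KO against WT, and -0.0231 with the myelin covariate for Dp16/D-KO against WT. Signs changed for Arl4d in Dp16;D-KO/K-KO against Dp16 (0.0568, batch 1 alone), Pim1 in Dp16/D-KO against WT (0.0282, batch 1 alone), Crem in Dp16;D-KO/K-KO against WT (0.0974, batch 2 alone) and Egr2 in Dp16;D-KO/K-KO against WT (-0.0055 without WT M2, and up to 0.6888 without WT F1). With the myelin covariate Egr2 was -0.0742 in Dp16/D-KO against Dp16 and -0.1238 against WT. None of these was called. Fits within a batch have 10 or 13 libraries, and otherwise the cause was not tested. The spread of Fos and Egr2 between libraries limits what their comparisons can detect.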
